A study of Mus musculus with 12 samples.

Results

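Cholesterol synthesis and its control by SREBP2 were followed through 26 genes in whole kidneys of 3-week-old mice. The genes were listed by their place in the pathway, and each was read from the probe set whose only platform symbol was that gene, taking the one with the highest mean over the arrays where several existed. Of the 26 genes, 25 were measured, among 19938 genes tested in all; Acat2, the cytosolic acetoacetyl-CoA thiolase that starts the pathway, had no such probe set and is not analysed here. The 25 were 19 enzymes, 5 genes of SREBP control (Srebf1, Srebf2, Scap, Insig1 and Insig2) and the sterol carrier Stard4.

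Kidney RNA of 4 groups was hybridised to 12 Affymetrix mouse whole-transcript arrays, 3 per group. PpargΔ/Δ mice carry a deletion of Pparg, which encodes PPARγ, a nuclear receptor needed to form fat cells, and like the group titled control they are on a mixed C57BL6/SV129 background (called mixed control here). AZIP mice carry a transgene that blocks the formation of fat tissue and are on the FVB background, as are the FVB controls. All groups were 3 weeks old and none is labelled with a treatment or a change that controls and mutants share. Each array held RNA pooled from 3 mice, which makes 3 pools per group and 36 mice, and the p-values measure the spread between pools, which is narrower than that between single mice. The sources used here give neither the promoter or Cre line behind these genetic changes nor the extent of the Pparg deletion.

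Cells make cholesterol from acetyl-CoA by way of mevalonate, isoprenoid diphosphates, squalene and lanosterol. SREBP2, encoded by Srebf2, is a transcription factor held in the endoplasmic reticulum membrane with its escort Scap; when sterols are low the pair leaves for the Golgi, where SREBP2 is cut and freed to switch on genes of synthesis and uptake, and when sterols are high Insig1 and Insig2 keep Scap in place. Insig1 is itself a target of SREBP, and kidney tubule cells both make sterol and take it up.

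Promoters were shown for the 5 genes on which the account turns: Msmo1 and Insig1, which rose in PpargΔ/Δ, Cyp51, which fell in AZIP, Hmgcs1, which carries the sterol regulatory element searched, and Srebf2. The sequences are the 250 bases before the RefSeq transcription start on GRCm38.p6, 5′ to 3′ on the strand of the gene. Capitals mark a CCAAT box (CCAAT, or ATTGG on the other strand) or a match to the sterol regulatory element core TCACCCCAC with at most 1 base changed. Their places are chr8:64733579-64733828 on the minus strand for Msmo1, chr5:28071162-28071411 on the plus strand for Insig1, chr5:4104698-4104947 on the minus strand for Cyp51, chr13:119690101-119690350 on the plus strand for Hmgcs1 and chr15:82147019-82147268 on the plus strand for Srebf2.
Msmo1: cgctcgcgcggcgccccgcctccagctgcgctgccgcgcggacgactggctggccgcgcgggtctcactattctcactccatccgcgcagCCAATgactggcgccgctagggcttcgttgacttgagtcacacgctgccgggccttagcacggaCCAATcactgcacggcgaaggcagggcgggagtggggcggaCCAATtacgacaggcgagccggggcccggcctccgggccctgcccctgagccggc
Insig1: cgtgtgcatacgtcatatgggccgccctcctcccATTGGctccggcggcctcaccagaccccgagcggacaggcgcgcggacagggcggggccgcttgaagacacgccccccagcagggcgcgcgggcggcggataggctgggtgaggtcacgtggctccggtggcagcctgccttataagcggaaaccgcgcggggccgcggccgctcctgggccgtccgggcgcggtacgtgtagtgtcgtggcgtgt
Cyp51: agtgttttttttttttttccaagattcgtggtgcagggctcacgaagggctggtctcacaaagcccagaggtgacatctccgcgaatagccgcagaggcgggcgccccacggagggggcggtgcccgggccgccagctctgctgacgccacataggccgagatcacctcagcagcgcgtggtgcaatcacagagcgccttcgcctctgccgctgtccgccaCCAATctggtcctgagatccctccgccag
Hmgcs1: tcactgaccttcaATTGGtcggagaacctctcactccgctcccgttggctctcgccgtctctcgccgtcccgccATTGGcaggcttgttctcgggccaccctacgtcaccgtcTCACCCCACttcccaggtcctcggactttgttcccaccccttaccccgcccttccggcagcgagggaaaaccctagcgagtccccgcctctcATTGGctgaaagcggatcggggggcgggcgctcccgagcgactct
Srebf2: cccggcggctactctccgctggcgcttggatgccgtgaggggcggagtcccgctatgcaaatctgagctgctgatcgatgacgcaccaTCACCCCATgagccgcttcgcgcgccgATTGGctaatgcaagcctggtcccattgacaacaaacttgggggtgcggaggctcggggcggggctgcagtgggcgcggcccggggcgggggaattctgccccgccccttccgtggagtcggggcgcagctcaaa

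Motifs were counted on both strands in windows of 300 bases, from 250 before to 50 after each start, for the 22 genes of the list with an entry (Fdps, Fdft1, Sqle and Stard4 have none; Acat2, unmeasured, has one). The 22 genes had 30 promoters, and a gene was counted if any of its promoters matched. A CCAAT box, the site of NF-Y, stood in 20 of 22 genes (90.9%), against 41.7% of the 15563 genes on the array with a promoter entry. The GC box GGGCGG, a site of Sp1-type factors, was also found in 20 of 22 (90.9%), against 53% of genes on the array. Counted by promoter, 21 of 30 held a CCAAT box (37.4% of all 32851 promoters) and 24 of 30 a GC box (35.7%). The E-box CACGTG stood in 5 of 22 (22.7%; genes on the array 9.52%), namely Hsd17b7, Sc5d, Dhcr7, Scap and Insig1. The exact core TCACCCCAC stood in 1 of 22 (4.55%; genes on the array 0.636%), Hmgcs1, at -137 to -129 from the start. The form TCACNCCAC, which covers that core, found the same single gene (genes on the array 1.39%), and a form longer by 1 base (A before the core) found 0 of the 22 (genes on the array 0.0643%). With at most 1 base changed, a form chosen after seeing the exact search, 5 of 22 genes matched (22.7%; genes on the array 11.7%), namely Acat2, Hmgcs1, Nsdhl, Hsd17b7 and Srebf2. The Srebf2 match, TCACCCCAT, lies at -162 to -154. Msmo1 had 3 CCAAT boxes, at -160, -96 and -55, Cyp51 had 1 at -29, and Insig1 had 1 on the other strand at -216 and an E-box at -101. A match describes letters in the window only.

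The arrays were alike in overall signal. Array medians over 35556 probe sets lay between 7.17 and 7.21 in log2, and arrays of a group had a mean correlation of 0.997 to 0.998 across genes. The 8 proximal tubule markers had a mean log2 value of 12.54 to 12.77 over the arrays, and the 6 of the loop and distal tubule 11.97 to 12.11. Levels of different probe sets cannot be ranked against each other, so these are given as readings only. The Pparg probe set read 8.002, 8.19 and 8.01 on the PpargΔ/Δ arrays and 7.90, 7.97 and 8.02 on the mixed control arrays (0.11 ± 0.06, limma adjusted p = 0.339). The extent of the deletion being unknown, this reading is no check of genotype, and groups were taken from the labels alone.

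In PpargΔ/Δ kidneys 3 of the 25 genes were higher than in mixed controls and 0 were lower at a limma adjusted p under 0.05. The background was 2.67% of all genes called higher and 2.62% called lower. The 3 were Msmo1, a sterol-4α-methyl oxidase late in the pathway, Insig1 and Srebf1, with rises between 1.25-fold and 2.01-fold. Before adjustment 11 of the 25 were higher and 2 lower at p under 0.05, against 10.2% of all genes in each direction. On 11 of the 25 all 3 PpargΔ/Δ pools lay above all 3 controls, a pattern shown by 12.9% of all genes, and on 0 did they lie below, against 13.2%. The median difference over the 25 was 0.08 in log2, against -0.01 over all genes.

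In AZIP kidneys 1 of the 25 genes was higher than in FVB controls, Fdft1, and 1 was lower, Cyp51, against 1.3% of all genes called higher and 1.13% lower. At an unadjusted p under 0.05, 7 were higher (8.09% of all genes) and 3 lower (8.3%). All 3 AZIP pools lay above the FVB controls for 5 genes (11% of all genes), namely Fdps, Fdft1, Msmo1, Srebf1 and Insig1. They lay below them for 2 (11.5% of all genes), Cyp51 and Scap. The median difference over the 25 was 0.11, against 0.003 over all genes. In whole kidney, fewer cells of a type and less RNA per cell cannot be told apart for any of these values.

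**Figure D1:**
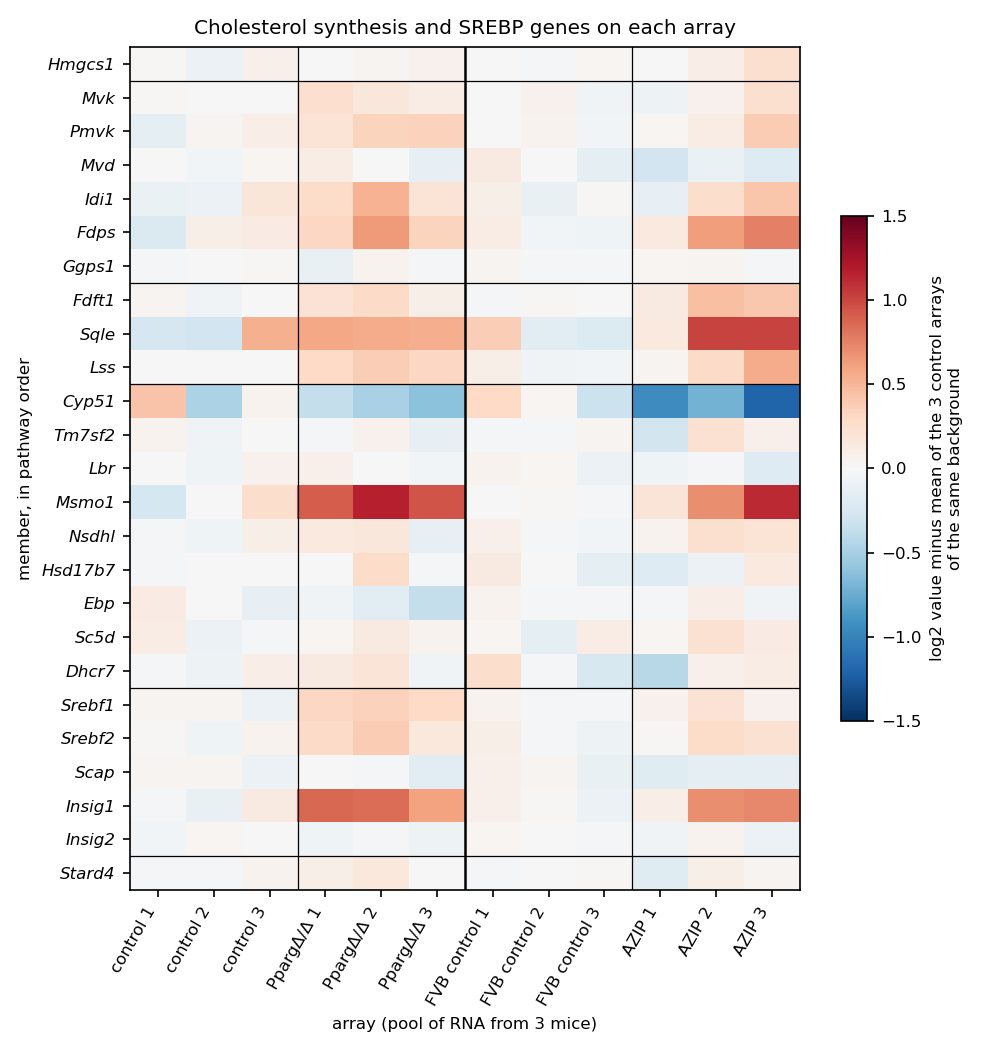
The 25 genes in pathway order (rows) on each of the 12 arrays (columns), as the log2 value minus the mean of the 3 control arrays of the same background; red is above and blue below that mean. Msmo1 and Insig1 are red on all 3 PpargΔ/Δ arrays, Cyp51 is blue on all 3 AZIP arrays, and AZIP pool 1 is paler than AZIP pools 2 and 3 in the rows of Idi1, Fdps, Fdft1, Sqle and Lss.

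The controllers of the pathway were read first. Srebf1, which encodes SREBP1, the relative of SREBP2 that mainly drives fatty acid synthesis, read 8.90, 8.94 and 8.90 on the PpargΔ/Δ arrays and 8.64, 8.64 and 8.52 on the mixed control arrays. The PpargΔ/Δ pools were tightly grouped above all controls. The difference was 0.32 ± 0.06 in log2, 1.25-fold (SE, n = 3 arrays per group, limma adjusted p = 0.0102), and Srebf1 kept the threshold with each of the 6 arrays left out (limma adjusted p up to 0.0406). The AZIP arrays read 8.68, 8.83 and 8.68 and the FVB controls 8.67, 8.59 and 8.59. AZIP lay above its controls by a narrow margin, the lowest AZIP pool beside the highest control, and the difference of 0.12 ± 0.06 did not pass (limma adjusted p = 0.343). The 2 Srebf1 differences were themselves apart by 0.20 ± 0.08 (95% interval 0.03 to 0.37, limma adjusted p = 0.835 over all genes).

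Srebf2 read 9.93, 10.02 and 9.81 in PpargΔ/Δ and 9.66, 9.59 and 9.70 in mixed controls. The groups did not overlap, but the difference of 0.27 ± 0.08 did not pass (limma adjusted p = 0.0624). Srebf2 passed under 5 of 11 other settings, 1 of them a looser threshold (limma adjusted p between 0.0315 and 0.0849). It missed the threshold with each of the 6 arrays left out (limma adjusted p up to 0.194). In AZIP it read 9.66, 9.91 and 9.87, and in FVB controls 9.73, 9.62 and 9.57. Pool 1 of AZIP lay among the controls, and the difference was 0.17 ± 0.08 (limma adjusted p = 0.291).

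Insig1, the sterol-dependent anchor of Scap and a target of SREBP, had the second largest difference of the 25 in PpargΔ/Δ. Its arrays read 10.10, 10.07 and 9.83 in PpargΔ/Δ, against 9.21, 9.12 and 9.37 in mixed controls. The lowest mutant pool stood well above the highest control, with a difference of 0.77 ± 0.14, 1.70-fold (n = 3 arrays per group, limma adjusted p = 0.0124). Without mixed control 1 it missed the threshold (limma adjusted p = 0.0523). In AZIP Insig1 read 9.49, 10.07 and 10.11, against 9.46, 9.40 and 9.29 in FVB controls. Pools 2 and 3 were as high as the PpargΔ/Δ pools, while pool 1 was just above the highest control, and the difference of 0.51 ± 0.14 did not pass (limma adjusted p = 0.0883). Insig2, the other anchor, read 10.01, 10.04 and 9.998 in PpargΔ/Δ, 10.03, 10.11 and 10.08 in mixed controls, 10.11, 10.22 and 10.08 in AZIP, and 10.20, 10.16 and 10.13 in FVB controls. Its groups overlapped in both comparisons, with differences of -0.06 ± 0.05 (95% interval -0.16 to 0.05) and -0.03 ± 0.05 (-0.13 to 0.08).

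Scap, the escort, read 9.85, 9.84 and 9.70 in PpargΔ/Δ and 9.90, 9.90 and 9.77 in mixed controls, which overlapped (-0.06 ± 0.06). In AZIP it read 9.79, 9.83 and 9.83, against 10.04, 10.01 and 9.87 in FVB controls. All AZIP pools lay below all controls, with a difference of -0.16 ± 0.06 that did not pass (limma adjusted p = 0.234). Scap and Srebf2, partners in 1 complex, had estimates of opposite sign in both comparisons, but neither gene passed in either. The 95% interval of Scap in PpargΔ/Δ ran from -0.19 to 0.08 and so spanned both signs.

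**Figure D2:**
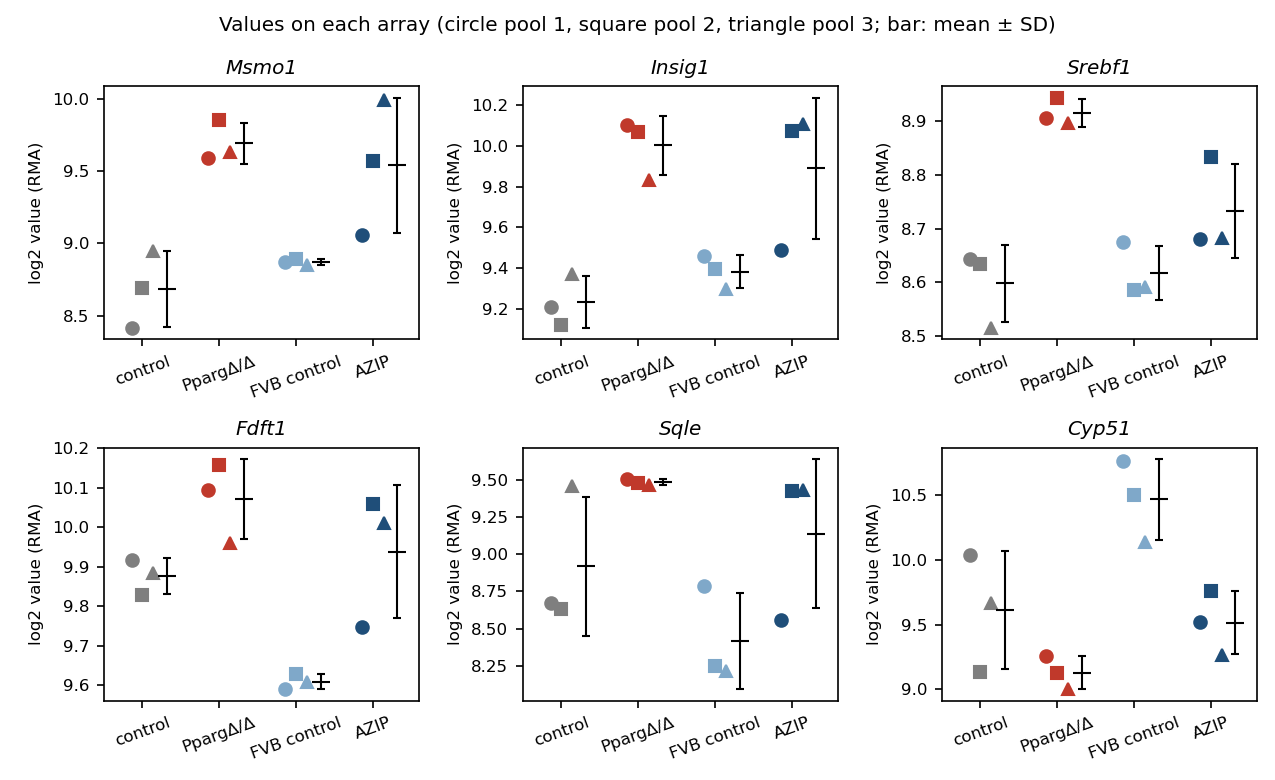
Log2 values of Msmo1, Insig1, Srebf1, Fdft1, Sqle and Cyp51 on each array, by group; circle, square and triangle are pools 1, 2 and 3, and the bar is the mean ± SD of 3 pools (each panel has its own axis, which does not start at 0). Msmo1, Insig1 and Srebf1 separate PpargΔ/Δ from mixed controls, AZIP pool 1 lies near the FVB controls for Msmo1, Insig1, Fdft1 and Sqle, and mixed control 3 lies just below the PpargΔ/Δ pools for Sqle.

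The step from acetyl-CoA to HMG-CoA was read from Hmgcs1 alone, which passed in neither comparison (limma adjusted p = 0.813 in PpargΔ/Δ and 0.438 in AZIP). Hmgcs1, the HMG-CoA synthase and the one gene with the exact core in its promoter as printed above, differed by 0.04 ± 0.06 in PpargΔ/Δ (95% interval -0.10 to 0.17) and 0.11 ± 0.06 in AZIP (-0.03 to 0.25). Its arrays ran from 11.37 to 11.43 in PpargΔ/Δ and 11.28 to 11.45 in mixed controls. In AZIP Hmgcs1 read 11.73, 11.83 and 11.97, against 11.74, 11.71 and 11.76 in FVB controls. Pools 2 and 3 of AZIP lay above all FVB controls and pool 1 among them. The groups overlapped in both comparisons.

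Of the 6 enzymes from mevalonate to the isoprenoid diphosphates, 0 passed in either comparison by limma. At an unadjusted p under 0.05 there were 4 higher in PpargΔ/Δ (10.2% of all genes). In AZIP there were 1 higher (8.09% of all genes) and 1 lower (8.3%). The PpargΔ/Δ pools all lay above the controls for 4 of 6 (12.9% of all genes). Those were Mvk and Pmvk, the kinases that phosphorylate mevalonate in turn, the isopentenyl diphosphate isomerase Idi1, and Fdps, the farnesyl diphosphate synthase. Pmvk read 7.86, 7.997 and 8.01 in PpargΔ/Δ and 7.52, 7.69 and 7.76 in mixed controls. The mutant pools lay above the controls by a small gap, and the difference was 0.30 ± 0.09 (limma adjusted p = 0.0750). In AZIP Pmvk read 7.68, 7.77 and 8.03, against 7.65, 7.70 and 7.61 in FVB controls. Pools 2 and 3 of AZIP lay above the controls and pool 1 among them (0.17 ± 0.09, limma adjusted p = 0.363).

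Fdps read 9.01, 9.33 and 9.03 in PpargΔ/Δ and 8.48, 8.78 and 8.82 in mixed controls. The groups did not overlap, and the difference of 0.43 ± 0.15 did not pass (limma adjusted p = 0.123). In AZIP it read 8.73, 9.22 and 9.34, against 8.70, 8.55 and 8.52 in FVB controls. Pools 2 and 3 were far above the controls and pool 1 only just above them, with a difference of 0.51 ± 0.15 (limma adjusted p = 0.0990). Mvk differed by 0.18 ± 0.07 and 0.08 ± 0.07 in PpargΔ/Δ and AZIP, and Idi1 by 0.33 ± 0.13 and 0.18 ± 0.13. A second single-symbol probe set of Idi1 gave 0.40 and 0.21. Mvd, which decarboxylates mevalonate diphosphate, differed by -0.01 ± 0.08 and -0.19 ± 0.08. Ggps1, which takes farnesyl diphosphate away from sterols to geranylgeranyl diphosphate, lay at -0.02 ± 0.05 and 0.01 ± 0.05, with intervals from -0.13 to 0.09 and -0.09 to 0.12.

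The 3 enzymes from farnesyl diphosphate to lanosterol were all above 0 in both comparisons and had an unadjusted p under 0.05 in both. Of all genes, 10.2% were higher by that rule in PpargΔ/Δ and 8.09% in AZIP. Fdft1, the squalene synthase that commits carbon to sterols, read 9.75, 10.06 and 10.01 in AZIP and 9.59, 9.63 and 9.61 in FVB controls. The controls spanned a few hundredths, and every AZIP pool lay above them, with a difference of 0.33 ± 0.08, 1.26-fold (n = 3 arrays per group, limma adjusted p = 0.0494). Fdft1 missed the threshold without AZIP 2 or 3 or any of the FVB controls (limma adjusted p up to 0.169) and kept it without AZIP 1 (0.42, limma adjusted p = 0.0096). It also missed it with equal array medians (limma adjusted p = 0.0634) and with only the AZIP and FVB control arrays in the fit (0.118 by limma). In PpargΔ/Δ it read 10.10, 10.16 and 9.96, against 9.92, 9.83 and 9.89 in mixed controls, with no overlap and a difference of 0.19 ± 0.08 (limma adjusted p = 0.179). A second single-symbol probe set of Fdft1 gave 0.17 in PpargΔ/Δ and 0.36 in AZIP.

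Sqle, the squalene epoxidase and a rate-limiting step, read 9.50, 9.48 and 9.47 in PpargΔ/Δ and 8.67, 8.63 and 9.46 in mixed controls. Control 3 stood just below the lowest mutant pool, so Sqle was among the 11 genes without overlap by a very small gap. The difference of 0.57 ± 0.26 did not pass (limma adjusted p = 0.244). In AZIP it read 8.56, 9.43 and 9.43, against 8.79, 8.25 and 8.21 in FVB controls. AZIP pools 2 and 3 were high and pool 1 lay inside the range of the controls (0.72 ± 0.26, limma adjusted p = 0.176). Lss, which closes the ring to lanosterol, read 8.60, 8.66 and 8.61 in PpargΔ/Δ, against 8.31, 8.30 and 8.29 in mixed controls. Both groups were narrow and stood apart, with a difference of 0.32 ± 0.10 (limma adjusted p = 0.0824). In AZIP Lss read 8.47, 8.72 and 8.99, against 8.52, 8.38 and 8.39 in FVB controls, and AZIP pool 1 lay below FVB control 1 (0.29 ± 0.10, limma adjusted p = 0.151).

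The 9 enzymes from lanosterol to cholesterol did not move as a block: 1 rose in PpargΔ/Δ, 1 fell in AZIP, and the other 7 passed in neither. Msmo1, which removes the methyl groups at carbon 4, read 9.59, 9.85 and 9.63 in PpargΔ/Δ and 8.42, 8.69 and 8.95 in mixed controls. The highest control was well below the lowest mutant pool. The difference of 1.01 ± 0.19, 2.01-fold, was the largest of the 25 in PpargΔ/Δ (n = 3 arrays per group, limma adjusted p = 0.0140). Leaving out mixed control 1 or PpargΔ/Δ 2 made Msmo1 miss the threshold (limma adjusted p up to 0.0634). In AZIP it read 9.06, 9.57 and 9.99, against 8.87, 8.89 and 8.85 in FVB controls. All AZIP pools lay above controls that were almost identical, and the difference of 0.67 ± 0.19 did not pass (limma adjusted p = 0.0932).

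Cyp51, the lanosterol 14α-demethylase that acts earlier than Msmo1, differed the other way. Its arrays read 9.52, 9.76 and 9.27 in AZIP and 10.77, 10.50 and 10.14 in FVB controls. Every AZIP pool lay below every control, with a difference of -0.95 ± 0.21, a level 1.94-fold lower (n = 3 arrays per group, limma adjusted p = 0.0401). Cyp51 kept the threshold without FVB control 3 and missed it without each of the other 5 arrays (limma adjusted p up to 0.164), as it did with only the AZIP and FVB control arrays in the fit (limma adjusted p = 0.0570). In PpargΔ/Δ it read 9.26, 9.12 and 9.003, against 10.04, 9.14 and 9.66 in mixed controls. Control 2 lay inside the mutant range, and the difference of -0.49 ± 0.21 did not pass (limma adjusted p = 0.219). Cyp51 was read from a single probe set, and no second reading of it was available among the single-symbol probe sets.

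The other 7 late enzymes had smaller differences than Msmo1 and Cyp51 in both comparisons. Nsdhl, which works with Msmo1 at carbon 4, differed by 0.07 ± 0.08 in PpargΔ/Δ and 0.17 ± 0.08 in AZIP. Hsd17b7, the ketone reductase of the same steps, differed by 0.08 ± 0.10 and -0.04 ± 0.10. Tm7sf2 and Lbr, both sterol C14 reductases, differed by -0.03 ± 0.10 and 0.01 ± 0.06 in PpargΔ/Δ and by 0.01 ± 0.10 and -0.09 ± 0.06 in AZIP. The isomerase Ebp differed by -0.19 ± 0.08 in PpargΔ/Δ (95% interval -0.37 to -0.01, limma adjusted p = 0.207) and 0.01 ± 0.08 in AZIP. Ebp and Cyp51 were the 2 of the 25 genes lower in PpargΔ/Δ at an unadjusted p under 0.05 (10.2% of all genes). Sc5d, the C5 desaturase, differed by 0.07 ± 0.08 and 0.13 ± 0.08, and Dhcr7, the last reductase of one branch, by 0.09 ± 0.15 and -0.08 ± 0.15. Stard4, which carries cholesterol between membranes, differed by 0.08 ± 0.07 and -0.02 ± 0.07.

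**Figure D3:**
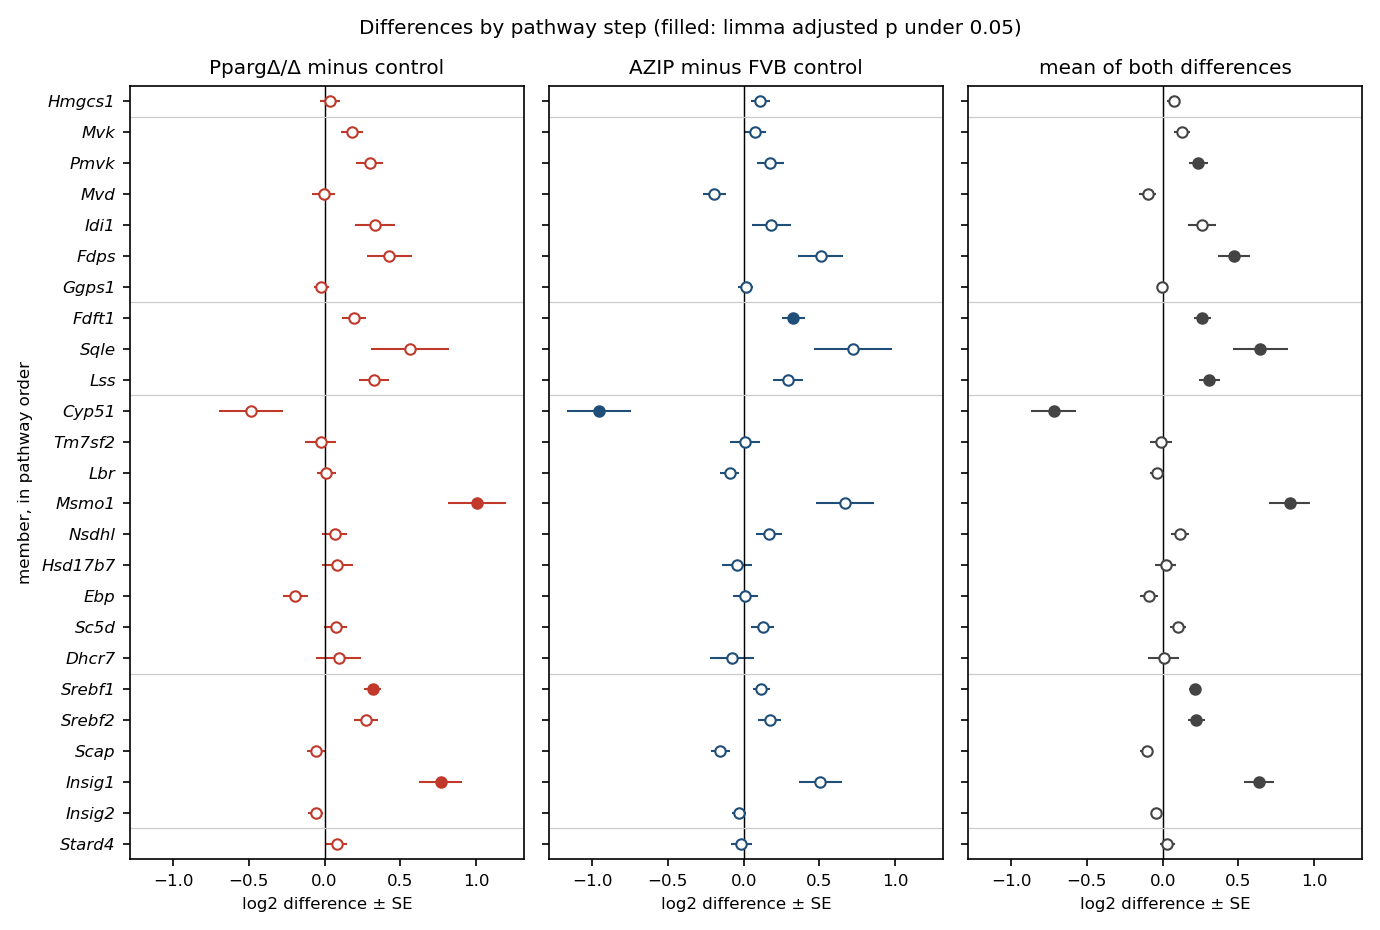
Log2 difference ± SE of each of the 25 genes in pathway order, for PpargΔ/Δ minus control, AZIP minus FVB control, and the mean of both differences; filled points have a limma adjusted p under 0.05. The points from Fdps to Lss lie to the right of 0 except Ggps1, Msmo1 and Insig1 stand furthest right in PpargΔ/Δ, and Cyp51 lies to the left in all 3 panels.

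The comparisons share no array, so the genes could be set side by side and the mean of both differences tested. The differences had the same sign for 18 of the 25 genes (72%), 14 above and 4 below 0, against 65.5% of all genes, so this share was close to the background. The genes of opposite sign were Ggps1, Tm7sf2, Lbr, Hsd17b7, Ebp, Dhcr7 and Stard4, each with differences of less than 0.20 in size. The test of the difference between the comparisons called 0 of the 25 genes by limma (0.0201% of all genes), and 1 of them, Srebf1, had an unadjusted p under 0.05 (5.82% of all genes). The intervals were wide for the genes that moved most: Msmo1 was apart by 0.34 (95% interval -0.25 to 0.93), Cyp51 by 0.47 (-0.18 to 1.12) and Sqle by -0.16 (-0.96 to 0.64).

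For the mean of both differences, which rests on 12 arrays, 9 of the 25 genes were higher and 1 was lower, against 6.29% of all genes in each direction. The 9 were Insig1, Srebf1 and Srebf2 among the controllers and Pmvk, Fdps, Fdft1, Sqle, Lss and Msmo1 among the enzymes, and the 1 lower was Cyp51. The largest were Msmo1 at 0.84 ± 0.14 (1.79-fold, limma adjusted p = 0.0028), Sqle at 0.64 ± 0.18 (limma adjusted p = 0.0397) and Insig1 at 0.64 ± 0.10 (limma adjusted p = 0.0025). Fdps stood at 0.47 ± 0.10 (limma adjusted p = 0.0134). By place in the pathway, 3 of 3 enzymes from farnesyl diphosphate to lanosterol were called higher and 2 of 6 from mevalonate to the isoprenoid diphosphates. Of the 9 from lanosterol to cholesterol, 1 was called higher and 1 lower. A call in the mean is not a call in each comparison. Srebf1, for instance, differed by 0.32 ± 0.06 in PpargΔ/Δ and by 0.12 ± 0.06 in AZIP, where it did not pass (limma adjusted p = 0.343).

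The remaining calls in the mean were Lss at 0.31 ± 0.07 (limma adjusted p = 0.0143), Fdft1 at 0.26 ± 0.05 (0.0097), Pmvk at 0.24 ± 0.06 (0.0295), Srebf2 at 0.22 ± 0.05 (0.0205), Srebf1 at 0.22 ± 0.04 (0.0054) and Cyp51 at -0.72 ± 0.15 (0.0094). Leaving out each of the 12 arrays in turn kept Fdps, Fdft1, Lss, Cyp51, Msmo1, Srebf1 and Insig1 past the threshold every time. Srebf2 missed it without mixed control 2 (limma adjusted p = 0.0505). Pmvk missed it without PpargΔ/Δ 2 or 3, mixed control 1, or FVB control 1 or 3 (limma adjusted p up to 0.0713). Sqle kept it only without mixed control 3, AZIP 1 or FVB control 1 (otherwise limma adjusted p up to 0.0948).

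The pools of a group differed from one another in these genes. AZIP pool 1 was the lowest of its group for 20 of the 25 genes, while over all genes it was the lowest for 32.7%. The 5 exceptions were Ggps1, Cyp51, Lbr, Ebp and Insig2. Averaged over the 19 enzymes, AZIP pool 1 lay at -0.08 relative to the FVB control mean, and pools 2 and 3 lay at 0.19 and 0.22. Without AZIP 1 the count of genes called in AZIP was 6 higher and 0 lower by limma, namely Fdft1 (0.42), Fdps (0.69), Sqle (1.01), Lss (0.42), Msmo1 (0.91) and Insig1 (0.71). Counts without other arrays ran down to 0, so the AZIP calls of single genes rest on which pools are in the fit.

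In PpargΔ/Δ the enzymes averaged 0.16, 0.23 and 0.08 above the mixed control mean on pools 1, 2 and 3. Pool 2 was the highest of its group for 15 of the 25 genes (34.8% of all genes) and the lowest for 0 (27%). Pool 3 was the lowest for 18 (33.3% of all genes). Among mixed controls, which averaged -0.01, -0.07 and 0.08, pool 3 was the highest for 15 (32.7% of all genes). The lowest PpargΔ/Δ pool and the highest control pool were therefore level on this average. FVB controls averaged 0.09, -0.02 and -0.06.

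**Figure D4:**
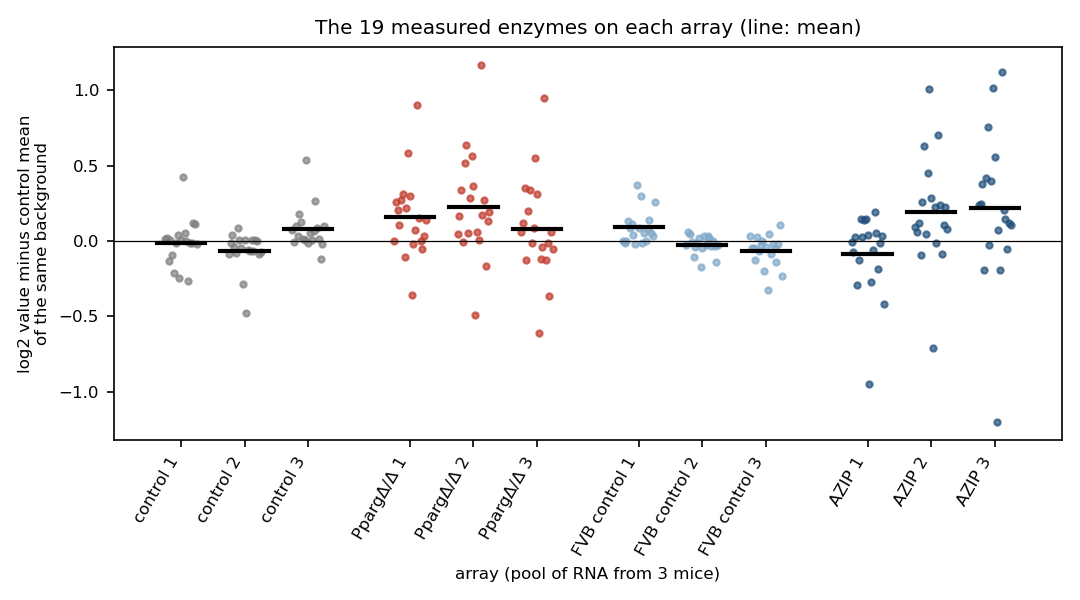
Each of the 19 measured enzymes on each of the 12 arrays, as the log2 value minus the mean of the 3 control arrays of the same background (vertical axis); each point is an enzyme and the line is their mean. The line of AZIP pool 1 lies at -0.08, below those of AZIP pools 2 and 3 at 0.19 and 0.22.

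Markers of other cells were read on the same arrays. For all marker lists, the background in PpargΔ/Δ was 2.67% of all genes called higher and 2.62% lower. In AZIP it was 1.3% and 1.13%. At an unadjusted p under 0.05 it was 10.2% in each direction in PpargΔ/Δ, and 8.09% higher and 8.3% lower in AZIP. The 7 measured markers of proliferating cells were all above 0 in both comparisons, with 0 called by limma and 3 in PpargΔ/Δ and 1 in AZIP at an unadjusted p under 0.05. Their mean log2 level was 8.67 to 9.19 in PpargΔ/Δ against 7.76 to 8.54 in mixed controls, and 7.85 to 8.71 in AZIP against 7.58 to 8.36 in FVB controls. Macrophage markers (8 measured, 0 called by limma) were above 0 for 7 of 8 in both comparisons, with levels of 8.25 to 8.87 against 8.05 to 8.28 and 7.66 to 8.30 against 7.76 to 7.85. At an unadjusted p under 0.05 there were 2 higher in PpargΔ/Δ, and 1 higher and 1 lower in AZIP.

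Of 6 collecting duct markers 3 were called higher in PpargΔ/Δ. For 4 of 6 all mutant pools lay above all controls, a pattern shown by 12.9% of all genes. The median difference was 0.21 and the mean level 10.29 to 10.32 against 10.002 to 10.16. The 3 called were the water channels Aqp2 (0.48 ± 0.10, limma adjusted p = 0.0220) and Aqp3 (0.42 ± 0.09, limma adjusted p = 0.0285) and the sodium channel subunit Scnn1g (0.23 ± 0.06, limma adjusted p = 0.0499). Aqp2 missed the threshold without PpargΔ/Δ 2 or 3 or mixed control 1 or 3 (up to 0.0819 by limma). Aqp3 kept it only without PpargΔ/Δ 1 (otherwise up to 0.0987), and Scnn1g missed it without each of the 6 arrays (up to 0.145 by limma). In AZIP 0 of 6 were called by limma and 2 were higher at an unadjusted p under 0.05, with levels of 9.85 to 10.15 against 9.897 to 9.90.

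The podocyte list had 1 of 4 called higher in both comparisons, Wt1, a transcription factor of these cells (0.29 ± 0.06, limma adjusted p = 0.0169, and 0.28 ± 0.06, limma adjusted p = 0.0308). Wt1 missed the threshold in PpargΔ/Δ without mixed control 1 or 2 (up to 0.0636 by limma), and in AZIP it kept it only without AZIP 1 (otherwise up to 0.113). At an unadjusted p under 0.05 there were 3 of 4 higher in PpargΔ/Δ and 1 in AZIP. Podocyte levels were 8.84 to 9.0004 against 8.75 to 8.86 and 8.98 to 9.06 against 8.90 to 8.95. Proximal tubule markers were below 0 for 7 of 8 and 8 of 8, with 0 called by limma and 3 and 5 lower at an unadjusted p under 0.05. Of 6 loop and distal tubule markers 0 were called in either comparison by limma, and 0 had an unadjusted p under 0.05.

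Urothelium markers went both ways in PpargΔ/Δ, with 1 of 6 higher, the basal keratin Krt5 (1.80 ± 0.14, limma adjusted p = 1.80e-04), and 1 lower, the uroplakin Upk1b (-0.91 ± 0.15, limma adjusted p = 0.0083). At an unadjusted p under 0.05 there were 1 higher and 4 lower. Their mean level was 7.23 to 7.36 against 7.13 to 7.34, and in AZIP, where 0 were called by limma and 1 was higher at an unadjusted p under 0.05, 7.25 to 7.65 against 7.12 to 7.37. Adrenal cortex markers, from a tissue rich in sterol synthesis that lies on the kidney, read 5.99 to 5.998 in PpargΔ/Δ against 5.88 to 5.99 in mixed controls, and 6.09 to 6.19 in AZIP against 6.02 to 6.09 in FVB controls. Of 10, 1 was called higher in PpargΔ/Δ, the corticotropin receptor Mc2r (0.42 ± 0.09, limma adjusted p = 0.0244), which missed the threshold without PpargΔ/Δ 2 or any of the mixed controls (up to 0.0833 by limma). In AZIP 0 of 10 were called by limma, with 1 higher and 1 lower at an unadjusted p under 0.05.

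White fat markers lay at 6.66 to 6.75 in PpargΔ/Δ against 6.91 to 7.04 in mixed controls, with 1 of 7, the lipase Lipe, called lower (-0.59 ± 0.09, limma adjusted p = 0.0037). All 7 were below 0, and 3 were lower at an unadjusted p under 0.05 (10.2% of all genes). For 4 of 7 all mutant pools lay below all controls (13.2% of all genes). In AZIP the white fat markers lay at 6.92 to 7.05 against 6.99 to 7.04, with 0 called by limma and 1 higher and 1 lower at an unadjusted p under 0.05. Brown fat markers (7 measured, 0 called by limma in either comparison) lay at 6.36 to 6.53 against 6.57 to 6.85 and 6.64 to 7.06 against 6.72 to 6.95, with 2 lower in PpargΔ/Δ and 1 lower in AZIP at an unadjusted p under 0.05. The part of these cells in the sterol values was not tested.

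The control kidneys of the strains themselves differed in 5 of the 25 genes, 3 higher and 2 lower in FVB than in mixed controls, against 3.5% and 3.72% of all genes. Cyp51 was higher in FVB by 0.86 ± 0.21 (limma adjusted p = 0.0302), Nsdhl by 0.37 ± 0.08 (limma adjusted p = 0.0183) and Hmgcs1 by 0.36 ± 0.06 (limma adjusted p = 0.0046). Lower in FVB were Sc5d, with a difference of -0.47 ± 0.08 (limma adjusted p = 0.0027), and Ggps1, with -0.26 ± 0.05 (limma adjusted p = 0.0070). Hmgcs1, Sc5d and Ggps1 kept the threshold with each of the 6 control arrays left out. Cyp51 missed it without FVB control 1 or 2 or mixed control 2 or 3 (by limma adjusted p up to 0.116) or with only the control arrays in the fit (0.0748), and Nsdhl without FVB control 1 or mixed control 1 or 2 (up to 0.0761 by limma). The AZIP pools (9.27 to 9.76) thus lay within the range of Cyp51 in mixed controls (9.14 to 10.04), although they were below FVB controls. Whether the strains differ in sequence under the probes of these 5 probe sets was not tested. Of the genes called in the mean of both mutants only Cyp51 was also called between strains.

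**Figure D5:**
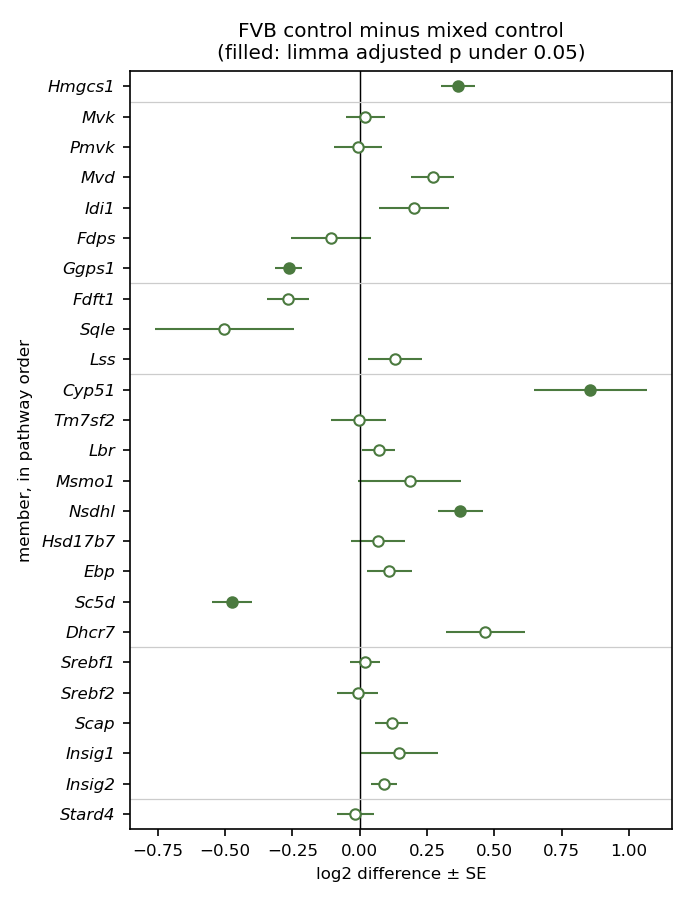
Log2 difference ± SE between the 3 FVB control and 3 mixed control arrays for the 25 genes in pathway order; filled points have a limma adjusted p under 0.05. Cyp51, Nsdhl and Hmgcs1 lie to the right of 0 (higher in FVB), and Sc5d and Ggps1 to the left.

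The machinery that carries and cuts SREBP or degrades the Insig proteins was set beside the pathway, with 11 of 13 listed genes measured. For this list and those below, the background in PpargΔ/Δ was 2.67% of all genes called higher and 2.62% lower. In AZIP it was 1.3% and 1.13%. At an unadjusted p under 0.05 it was 10.2% in each direction in PpargΔ/Δ, and 8.09% higher and 8.3% lower in AZIP. In PpargΔ/Δ 0 were higher and 1 lower, Erlin1, a cholesterol-binding protein of the endoplasmic reticulum that takes part in protein degradation there. It read 9.45, 9.31 and 9.66 in PpargΔ/Δ, against 9.92, 10.02 and 10.01 in mixed controls. The groups stood clear of each other, with a difference of -0.51 ± 0.09 (limma adjusted p = 0.0083). In AZIP 0 of 11 were called by limma, 2 had an unadjusted p under 0.05, and Erlin1 differed by -0.21 ± 0.09 (limma adjusted p = 0.262). The medians over the 11 were -0.02 and -0.03.

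Other SREBP targets, mostly of fatty acid synthesis (16 of 16 measured), held calls in both directions. In PpargΔ/Δ 2 were higher, Scd2 and the acetyl-CoA carboxylase Acaca, and 1 was lower, the malic enzyme Me1. In AZIP 1 was higher, Scd2, and 0 were lower by limma. At an unadjusted p under 0.05 there were 3 higher and 3 lower in PpargΔ/Δ (10.2% of all genes in each direction). In AZIP there were 1 higher (8.09% of all genes) and 7 lower (8.3%). All AZIP pools lay above the controls for 1 of 16 (11% of all genes) and below them for 6 (11.5%). All PpargΔ/Δ pools lay above for 3 (12.9% of all genes) and below for 4 (13.2%). Scd2, a stearoyl-CoA desaturase, read 10.65, 10.72 and 10.86 in PpargΔ/Δ and 9.97, 10.004 and 9.95 in mixed controls, and 10.26, 10.45 and 10.37 in AZIP against 9.88, 9.79 and 9.86 in FVB controls. Neither pair of groups overlapped, and the differences were 0.77 ± 0.06 (limma adjusted p = 2.27e-04) and 0.51 ± 0.06 (limma adjusted p = 0.0046). Its paralogue Scd1, the main desaturase of liver and fat, went the other way in value, at -1.01 ± 0.34 (limma adjusted p = 0.117) and -1.31 ± 0.34 (limma adjusted p = 0.0723), neither of which passed. Acaca differed by 0.25 ± 0.06 in PpargΔ/Δ (limma adjusted p = 0.0284) and -0.09 ± 0.06 in AZIP. Acaca missed the threshold without mixed control 2 or 3 or PpargΔ/Δ 2 or 3 (limma adjusted p up to 0.0924), and with only its own comparison's arrays in the fit (0.0648 by limma). Me1 fell in PpargΔ/Δ (-0.39 ± 0.07, limma adjusted p = 0.0077) and differed by -0.25 ± 0.07 in AZIP (limma adjusted p = 0.0685). The medians over the 16 were -0.08 in both comparisons.

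Of 9 measured genes of LXR and sterol efflux, 1 was higher and 1 lower in PpargΔ/Δ and 0 were called in AZIP by limma, where 3 had an unadjusted p under 0.05. Abcg1, a sterol exporter, differed by 0.32 ± 0.08 (limma adjusted p = 0.0373), and Nr1h3, which encodes LXRα, by -0.56 ± 0.13 (limma adjusted p = 0.0270). Abcg1 missed the threshold with any of the 6 arrays left out (limma adjusted p up to 0.118), and Nr1h3 without mixed control 1 or 2 or PpargΔ/Δ 2 or 3 (up to 0.101 by limma).

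Of 18 measured genes of sterol uptake, storage and movement, 1 was called, lower, in both comparisons: Lipa, the lysosomal acid lipase that frees cholesterol from lipoprotein esters. It read 11.24, 11.10 and 11.17 in PpargΔ/Δ, against 11.77, 11.57 and 11.60 in mixed controls, and 10.90, 10.95 and 10.73 in AZIP, against 11.26, 11.25 and 11.19 in FVB controls. No groups overlapped, and the differences were -0.48 ± 0.07 (limma adjusted p = 0.0039) and -0.38 ± 0.07 (limma adjusted p = 0.0202). In AZIP Lipa missed the threshold without AZIP 3 or FVB control 1 or 2 (up to 0.0931 by limma) and with only the arrays of that comparison in the fit (0.0570 by limma). At an unadjusted p under 0.05, Lipa included, 3 of the 18 were higher and 4 lower in PpargΔ/Δ (10.2% of all genes in each direction). In AZIP 1 was higher (8.09% of all genes) and 5 were lower (8.3%). Of 12 measured genes of the isoprenoid branches (prenylation, dolichol and ubiquinone), 0 were called in PpargΔ/Δ by limma, where 2 had an unadjusted p under 0.05. In AZIP 1 was lower, Icmt, which methylates prenylated proteins (-0.24 ± 0.05, limma adjusted p = 0.0364). Icmt kept the threshold without FVB control 3 and missed it without each of the other 5 arrays (limma adjusted p up to 0.149) and with only the arrays of that comparison in the fit (0.119 by limma).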

How the data were processed

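Whole-kidney RNA was measured on 12 arrays in 4 groups of 3 pools. Per the submitters' processing notes, the authors made the log2 values with RMA, in Affymetrix Expression Console. The version, settings and genome build were not given in the sources used here. RMA corrects background, quantile-normalizes the arrays and summarises each probe set, so a difference common to all genes would be removed. The values were used as deposited, and 0 columns of values were left unused. Scanner files were not used here.

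The platform table gave 1 symbol for 21789 of 35556 probe sets, several for 1621 and none for 12146, and 21698 symbols were brought up to date through their Entrez number. For 999 genes with several single-symbol probe sets the highest mean was used, leaving 19938 genes. No test compared levels of different probe sets, and the number of arrays limits the precision (median SE 0.0698 in log2).

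In limma 3.58.1 (R 4.3.3) a mean per group was fitted over the 12 arrays, with 8 residual and 3.71 prior degrees of freedom. The contrasts were PpargΔ/Δ minus mixed control, AZIP minus FVB control, their difference, their mean, and FVB minus mixed control. Two-sided p-values took the Benjamini-Hochberg adjustment over all 19938 genes, with a threshold of 0.05. The limma fit was tested on simulated data with changes added to the PpargΔ/Δ arrays. The other steps were not tested in this way.

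All members were named. Values on every array were given for members past the threshold in a mutant contrast, for the 5 with the smallest p in each mutant comparison, and for Srebf1, Srebf2, Scap, Insig1 and Insig2; of other lists, up to 3 genes with the smallest p were named. The members and lists were chosen with earlier results of these data known. Promoters came from RefSeq (GRCm38.p6) and were matched by symbol for 22 of 26 genes. Alternatives were another quantile normalization, equal array medians, leaving out genes under percentile 25 or 50, averaging the probe sets of a gene, a fit of only the groups compared, array weights, robust variance, a variance trend, a block for the replicate number, an adjusted p under 0.10, and each array left out. For called markers of other cells, leaving out arrays was added after seeing the data. Figures were drawn with matplotlib 3.10.9 in Python 3.11.15.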

Additional observations from a re-analysis of the deposited data

How the results depend on the processing

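The count of genes called higher in PpargΔ/Δ was 3 with the values as deposited and 6 with genes under percentile 50 left out, with array weights, or at an adjusted p under 0.10. The genes gained there were Pmvk, Lss and Srebf2, and each missed the threshold with any of the 6 arrays of the comparison left out. With 1 array left out the count ran from 1 (without mixed control 1) to 6 (without AZIP 1), and it was 5 without AZIP 3. The AZIP count of 2 became 1 with equal array medians, where Fdft1 missed the threshold, 5 at an adjusted p under 0.10, and 0 with only the groups compared in the fit. With 1 array left out it ran from 0 to 6, the 6 without AZIP 1; it was 0 without PpargΔ/Δ 2, mixed control 3, AZIP 2 or 3, or FVB control 1 or 2. The strain count of 5 became 8 with array weights or at an adjusted p under 0.10 and ran from 3 to 7 with 1 array left out, 3 without mixed control 2 or FVB control 1. The mean of both differences called 10 genes and 8 to 12 with 1 array left out, and the difference of the comparisons called 0 under every alternative run. Genes with a sterol regulatory element match went from 1 to 5 with at most 1 base changed. The causes were not tested.

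Deviations from the group means were correlated between samples with the same replicate number. The correlation was 0.18, 0.18 and 0.01 for PpargΔ/Δ and mixed control and -0.04, -0.10 and -0.01 for AZIP and FVB control. Between samples with unlike numbers it ran from -0.26 to 0.15 and from -0.11 to 0.15. With so few arrays these values cannot decide whether the numbers pair the samples. With the replicate number as a block the counts were 4 in PpargΔ/Δ, 2 in AZIP, 9 for the mean and 5 between strains; Fdft1 in AZIP (limma adjusted p = 0.0546) and Sqle in the mean (limma adjusted p = 0.0518) missed the threshold, and Pmvk in PpargΔ/Δ (limma adjusted p = 0.0428) and Msmo1 in AZIP passed it. Alternatives for single genes were run for 57 pairs of a gene and a contrast: 12 members in the mutant comparisons and in their mean, the 5 strain calls and the 8 genes called in other gene lists, in the mutant comparisons. The other members were not run this way in the mutant comparisons. Among these pairs no direction reversed. With each of the 12 arrays left out, those outside a contrast (which alter its variance but not its difference) included, 601 values kept their side of the threshold, 72 lost it and 11 gained it, and under the other alternatives 576 kept it, 9 lost it and 30 gained it.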
